A study of Mus musculus with 10 samples.

Results

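The IGKV8 family is a group of V genes of the mouse immunoglobulin kappa light chain. Its members were taken here as the productive kappa sequences whose V call named genes of IGKV8 alone, with allele names removed. They came to 7068 of 78287 productive kappa sequences, or 3024 of 34920 kappa clonotypes, a clonotype being 1 combination of V call, J gene and junction nucleotides within a mouse. The calls named 9 IGKV8 genes of the 112 kappa V genes in the data: IGKV8-16, IGKV8-18, IGKV8-19, IGKV8-21, IGKV8-24, IGKV8-26, IGKV8-27, IGKV8-30 and IGKV8-34. A further call, on 1 sequence, named IGKV8-19 and IGKV8-30 jointly, and 0 sequences were called as IGKV8 together with another family. IGKV8-28, which the RefSeq gene table holds, was named by 0 calls.

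The sequences came from bulk B cell receptor libraries, 1 per mouse, made from RNA of all cells of the deep cervical lymph nodes, which drain the brain. All 10 animals were C57BL/6 wild-type mice that had received GL261 cells, an established mouse glioma line, inside the skull. 5 mice were given an anti-CTLA-4 antibody and 5 an isotype control IgG, and nodes were taken on day 20 after implantation. CTLA-4 is an inhibitory receptor of T cells, and its blockade is an immune checkpoint therapy. B cells were not sorted, so the number of cells with a rearrangement and the amount of RNA per cell cannot be told apart in the deposited counts. The 10 libraries held 192536 to 437853 deposited counts of productive kappa chains, of which 5092 to 57053 were IGKV8, in 204 to 367 IGKV8 clonotypes per mouse.

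A kappa chain is built by joining 1 V gene to 1 J gene, with bases trimmed or added at the join. The V gene encodes the first and second complementarity-determining regions (CDR1 and CDR2), the loops that contact antigen, and the start of the CDR3, which the J gene completes. In mature B cells the V region can then gain point changes by somatic hypermutation, so mismatches to the germline V gene can hold such changes beside sequencing errors and allelic differences. In the RefSeq gene table (GRCm38.p6) the family has 13 entries on chromosome 6, 2 of them pseudogenes, and several neighbour IGKV6 genes: Igkv8-16 lies between Igkv6-17 and Igkv6-15, Igkv8-19 beside Igkv6-20 and Igkv8-24 beside Igkv6-25. The files name no genome build, so no coordinates are given.

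The 3' ends of the germline V genes are shown because they set the CDR3 that each gene tends to give. They were read from the germline sequences in the deposited tables, as far as the alignments of several sequences reached. A gene may extend further. The stretches start at the codon of the conserved cysteine before the CDR3 and have the CDR3 bases in capitals:
IGKV8-34: tgtCAGCAGTCCTACAGCGCTCCTACGTA
IGKV8-30: tgtCAGCAATATTATAGCTATCCTCCGGA
IGKV8-27: tgtCATCAATACCTCTCCTCGCGA
IGKV8-26: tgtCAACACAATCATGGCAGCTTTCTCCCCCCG
IGKV8-24: tgtCAGCAACATTATAGCACTCCTCCG
IGKV8-21: tgcAAGCAATCTTATAATCTTCCGG
IGKV8-19: tgtCAGAATGATTATAGTTATCCTCCGG
IGKV8-18: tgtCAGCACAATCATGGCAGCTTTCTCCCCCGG
IGKV8-16: tgtCAGCAGCATTTACACATTCCTCCG
As printed, IGKV8-27 and IGKV8-21 had the shortest ends, and IGKV8-18 and IGKV8-26 the longest. Up to that cysteine, the most alike pair was IGKV8-18 and IGKV8-26, at 98.2% identity, and the least alike was IGKV8-16 and IGKV8-18, at 78.5%.

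IGKV8-19 sequences fell into a pair of forms, shown here from base 31 to base 294 of the V gene, counted from 1 at the first base of the mature V region. Capitals mark the positions at which the forms differ:
IGKV8-19 second form: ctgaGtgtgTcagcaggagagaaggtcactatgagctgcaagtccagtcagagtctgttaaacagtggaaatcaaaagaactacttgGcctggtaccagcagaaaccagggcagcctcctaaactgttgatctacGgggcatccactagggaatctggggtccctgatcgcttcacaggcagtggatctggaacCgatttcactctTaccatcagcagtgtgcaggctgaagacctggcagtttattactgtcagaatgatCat
IGKV8-19 germline of the files: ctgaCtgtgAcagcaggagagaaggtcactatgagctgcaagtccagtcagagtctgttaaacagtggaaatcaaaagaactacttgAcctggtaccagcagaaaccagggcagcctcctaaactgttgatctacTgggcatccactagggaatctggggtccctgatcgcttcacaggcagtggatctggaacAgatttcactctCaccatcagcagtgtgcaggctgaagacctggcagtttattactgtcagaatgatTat
The substitutions, germline base first, were C35G, A40T, A118G, T166G, A225C, C237T and T292C. With codons counted from 1 at the same start, they give the residue changes T12S and T14S in framework 1, T40A in framework 2, W56G in CDR2 and Y98H in CDR3, and A225C and C237T are silent. Of 1928 IGKV8-19 sequences, 1386 carried none of these 7 mismatches, 40 carried 1, 6 carried 6 and 496 carried all 7. Sequences with 2 to 5 numbered 0. The 7 positions were picked because each differed in 20% or more of IGKV8-19 clonotypes, so the split itself is a description.

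**Figure D1:**
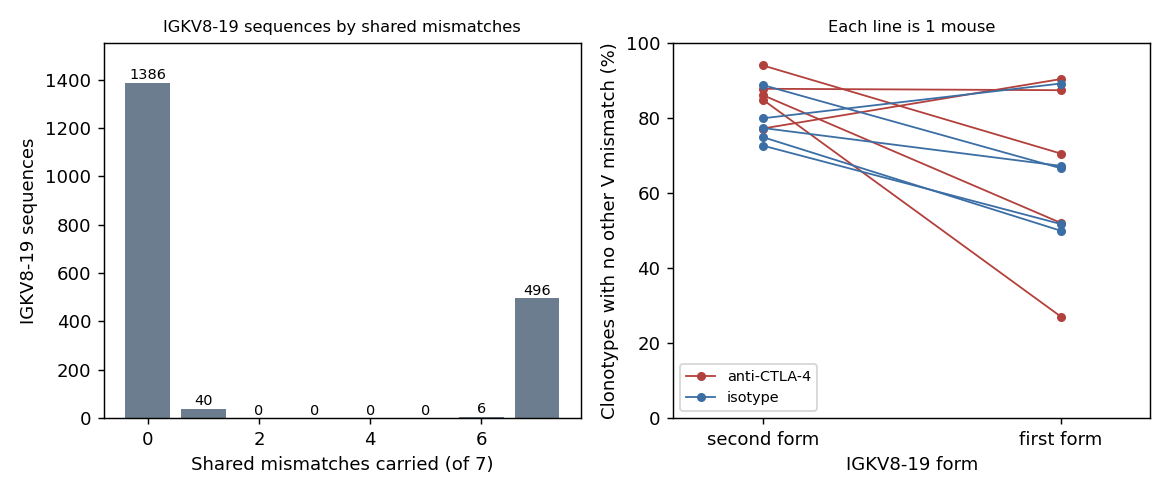
Left, number of IGKV8-19 sequences of all mice (y axis) by how many of the 7 shared mismatches they carried (x axis): 1386 carried 0 and 496 carried all 7. Right, share of clonotypes of each form with no other V mismatch (y axis), 1 line per mouse: the second form was higher in 8 of 10 mice.

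The second form was found in all 10 mice and made up 260 of 722 IGKV8-19 clonotypes. Its share of a mouse's IGKV8-19 clonotypes was 37.8% ± 8.80 (SD, n = 10), with a range of 17.2 to 51.2%. It held 0.701% ± 0.147 of kappa clonotypes in anti-CTLA-4 mice and 0.789% ± 0.124 in isotype mice (SD, n = 5 each). Before the CDR3 cysteine it was 97.8% identical to the IGKV8-19 germline of the files and at most 93.9% identical to any of the 8 other IGKV8 germlines, the closest of which was IGKV8-21. With the 7 shared positions left out, 82.5% ± 6.96 of second-form clonotypes had no V mismatch, against 65.3% ± 20.5 of first-form clonotypes (SD, n = 10 mice). The widest gap was in anti-CTLA-4 replicate 2, with 85.0% of 20 second-form and 27.1% of 96 first-form clonotypes. Both forms were present in every mouse, with 21 to 96 first-form and 17 to 33 second-form clonotypes per mouse, and all mice were of the same strain. The germline of IGKV8-28 was not used here, so whether second-form sequences match that gene or another allele of IGKV8-19 was not tested.

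IGKV8 was the third most used of 19 kappa families by clonotypes, with a mean of 8.64%, and the fifth by deposited counts, with 7.28%. The clonotype share was 7.63, 8.60, 9.63, 8.41 and 8.21% in anti-CTLA-4 replicates 1 to 5, against 9.17, 8.85, 9.00, 8.64 and 8.28% in isotype replicates 1 to 5. The groups overlapped, with means of 8.50% ± 0.728 and 8.79% ± 0.343 (SD, n = 5 each). In edgeR's quasi-likelihood test over 17 families, the log2 fold change of anti-CTLA-4 over isotype was -0.06 (SE 0.07, adjusted p = 0.756), and 0 families passed an adjusted p of 0.05 or an unadjusted p of 0.05.

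By deposited counts, which weigh cells rich in receptor RNA such as plasma cells, IGKV8 took 1.40, 5.81, 4.02, 6.56 and 7.89% of kappa counts in anti-CTLA-4 mice. It took 8.87, 9.29, 13.8, 6.32 and 8.85% in isotype mice. 4 isotype mice lay above every anti-CTLA-4 mouse, and isotype replicate 4 lay below 2 of them. The means were 5.14% ± 2.52 and 9.43% ± 2.73 (SD, n = 5 each), a difference of -4.30 percentage points (two-sided exact permutation test over 252 reassignments, p = 0.0238). After Benjamini-Hochberg adjustment over 19 families this p was 0.377, so the difference did not pass. Of the 19 families, 2, or 10.5%, had an unadjusted p below 0.05 in this test.

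**Figure D2:**
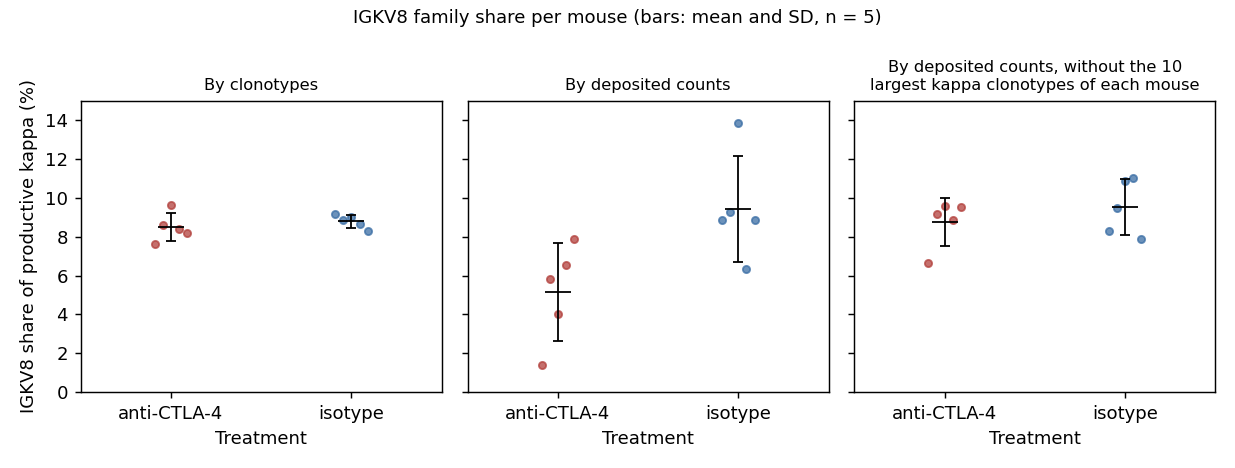
IGKV8 share of productive kappa per mouse (y axis, %), in anti-CTLA-4 and isotype mice (x axis), by clonotypes, by deposited counts, and by deposited counts without the 10 largest kappa clonotypes of each mouse. Points are mice, bars the mean and SD; the count shares average 5.14 and 9.43%, and 8.75 and 9.52% once the 10 largest clonotypes are left out.

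The mice also differed in how much of the kappa count their largest clonotypes held. The 10 largest held 78.9, 36.5, 58.0, 26.0 and 37.2% in anti-CTLA-4 mice, against 46.5, 34.6, 41.5, 42.7 and 32.1% in isotype mice. The groups overlapped, with anti-CTLA-4 replicates 1 and 3 highest and anti-CTLA-4 replicate 4 lowest. An IGKV4-55 clonotype held 35.6% of kappa counts in anti-CTLA-4 replicate 1 and an IGKV6-23 clonotype 27.6% in anti-CTLA-4 replicate 3, the mice with the lowest IGKV8 shares. Anti-CTLA-4 replicate 4, whose largest clonotype held 4.92%, had a lower IGKV8 share than 4 isotype mice, and the part of these clonotypes in the difference was not tested across mice. Among the 10 largest kappa clonotypes of a mouse, IGKV8 clonotypes numbered 1 in anti-CTLA-4 replicate 5 and 0 in the other anti-CTLA-4 mice, against 1, 2, 2, 0 and 1 in isotype replicates 1 to 5. With the 10 largest left out of each mouse, a choice made after seeing the data, the shares were 8.75% ± 1.22 and 9.52% ± 1.44, a difference of -0.77 points (exact permutation p = 0.365). With only the largest IGKV8 clonotype of each mouse left out, they were 4.29% ± 2.06 and 6.55% ± 1.94 (difference -2.26, exact permutation p = 0.127). That removal takes counts from IGKV8 alone, so every mouse's share could only fall, and the value decides nothing. With rearrangements kept only in the mouse that had more counts of them, the difference was -7.05 (exact permutation p = 0.0238). That setting picks rearrangements by the same counts that the share measures, so this value decides nothing. In the all-data comparison the unadjusted p was 0.0556 without anti-CTLA-4 replicate 1 and without isotype replicate 3, each in turn.

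The family's use was uneven. IGKV8-19 held 2.05% ± 0.479 of kappa clonotypes, IGKV8-30 1.79% ± 0.330, IGKV8-21 1.38% ± 0.161, IGKV8-27 1.13% ± 0.252 and IGKV8-24 0.981% ± 0.226 (SD, n = 10). IGKV8-16 held 0.577% ± 0.0994, IGKV8-18 0.337% ± 0.0582, IGKV8-34 0.321% ± 0.0630 and IGKV8-26 0.0733% ± 0.0430. The first pair and the pair of IGKV8-18 and IGKV8-34 lay within their spread, as did IGKV8-27 and IGKV8-24, whereas IGKV8-26 lay below all others. The 4 most used genes made up 73.6% of IGKV8 clonotypes and 87.5% of IGKV8 counts. IGKV8-16, with 200 clonotypes, had 1.21% of IGKV8 counts against 6.61% of IGKV8 clonotypes, and its most counted clonotype had a count of 206. IGKV8-34 had a largest count of 74 among 111 clonotypes, and IGKV8-26 one of 25 among 26 clonotypes.

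**Figure D3:**
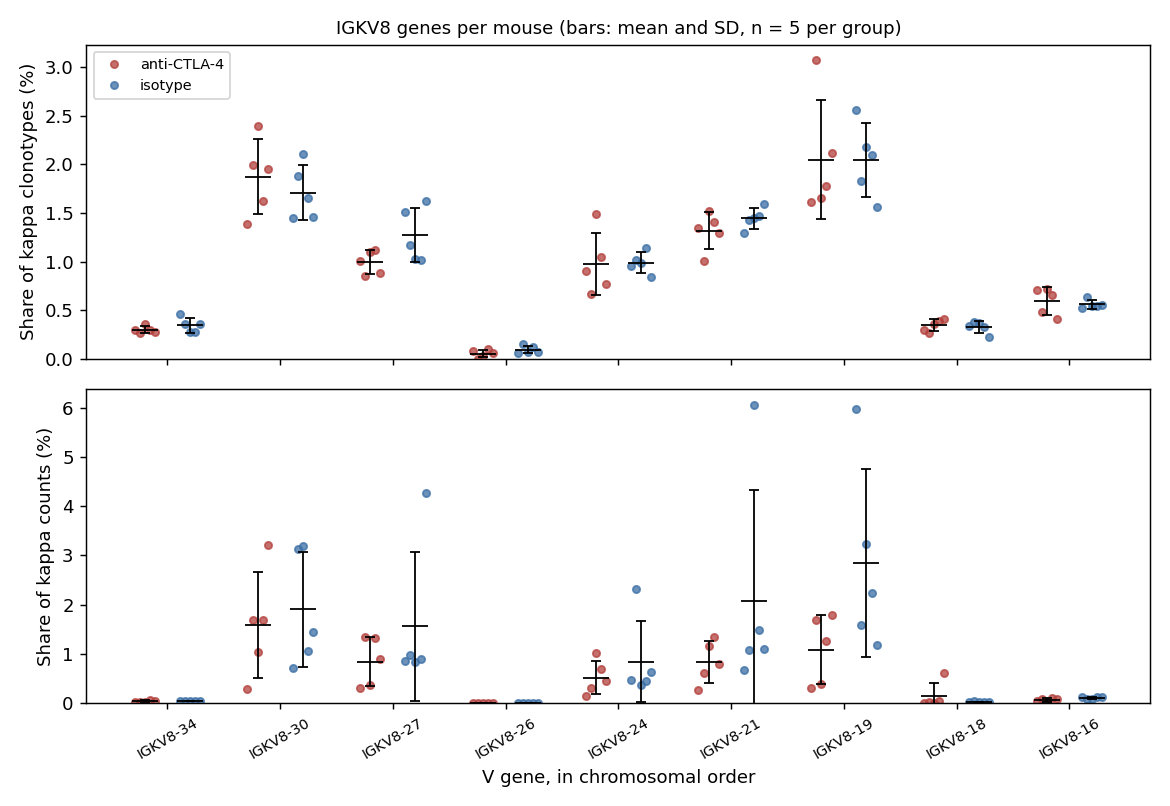
Share of productive kappa clonotypes (top, %) and of deposited kappa counts (bottom, %) for each IGKV8 gene in chromosomal order (x axis), anti-CTLA-4 left of isotype. Points are mice and bars the mean and SD (n = 5); clonotype shares overlap for every gene, and the high count shares of IGKV8-27 and IGKV8-21 are single isotype mice.

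No IGKV8 gene differed between treatments by clonotypes. Of 91 kappa V calls that passed the filter on low numbers, edgeR's quasi-likelihood test called 0, which is 0% at an adjusted p of 0.05, and DESeq2 called 0. At an unadjusted p of 0.05, edgeR called 4 of 91 (4.4%) and DESeq2 2 of 91 (2.2%), 0 of them IGKV8 genes in either test. Of the 8 IGKV8 genes tested, 5 had positive and 3 negative log2 fold changes, with a median of 0.03, against 0.01 over all 91 calls. IGKV8-26 and the joint call did not pass the filter.

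IGKV8-27 had the lowest p of the family. It made up 1.01, 0.850, 1.10, 1.12 and 0.882% of kappa clonotypes in anti-CTLA-4 mice, against 1.51, 1.17, 1.03, 1.02 and 1.62% in isotype mice. The groups overlapped, and isotype replicates 1 and 5 were highest. The log2 fold change was -0.30 (SE 0.16, edgeR adjusted p = 0.904). The other 7 lay between -0.16 for IGKV8-34 and 0.17 for IGKV8-30, all with an edgeR adjusted p of 0.992. The unadjusted p of IGKV8-27 was below 0.05 in some other settings, such as edgeR without TMM factors (0.0429), and above it in others, such as DESeq2 (0.126). With each assembled sequence counted, its log2 fold change was -0.89 (edgeR unadjusted p = 0.0314, adjusted p = 0.521).

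Deposited counts gave wider differences, of which 0 of 99 calls passed edgeR's adjusted p of 0.05. At an unadjusted p of 0.05, edgeR called 16 of 99 (16.2%), among them 2 of 8 IGKV8 genes. IGKV8-18 had a log2 fold change of 2.42 (SE 1.00, edgeR adjusted p = 0.276). Its counts were 30, 65, 53, 139 and 1740 in anti-CTLA-4 mice, against 70, 134, 107, 76 and 52 in isotype mice. Anti-CTLA-4 replicate 5 alone was high, and 1 clonotype there carried a count of 1696. IGKV8-19 had a log2 fold change of -1.33 (SE 0.60, edgeR adjusted p = 0.276). It took 0.314, 1.69, 0.384, 1.27 and 1.79% of kappa counts in anti-CTLA-4 mice, against 5.96, 1.59, 3.23, 2.24 and 1.19% in isotype mice, and the groups overlapped.

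Across the 10 mice, the kappa V calls whose log2 clonotype share was most like that of IGKV8 were IGKV4-57 (Pearson r = 0.777), IGKV3-5 (r = 0.746) and IGKV12-40 (r = 0.740), out of 95 calls compared. The shares come from the same libraries and sum to a fixed total, so these values are a description.

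J gene use was tested next, against all other kappa clonotypes of the same mouse. Mice join V genes to IGKJ1, IGKJ2, IGKJ4 or IGKJ5. IGKV8 clonotypes used IGKJ1 in 22.2% ± 1.68, against 26.0% ± 0.851 of other kappa clonotypes (SD, n = 10), lower in 9 of 10 mice (two-sided exact sign-flip test, adjusted p = 0.0156). IGKJ4 was used by 20.7% ± 2.73 of IGKV8 clonotypes, against 18.0% ± 0.828, higher in 9 of 10 mice (exact sign-flip test, adjusted p = 0.0273). That call was lost when any 1 of 6 of the mice was left out. The IGKJ1 and IGKJ4 calls were both lost when each assembled sequence was counted in place of each clonotype and also with deposited counts, where the IGKJ4 difference changed sign. IGKJ2 was at 29.1% ± 2.07, against 29.9% ± 1.07, and IGKJ5 at 27.9% ± 2.79, against 26.0% ± 1.45; neither passed (exact sign-flip test, adjusted p = 0.250 and 0.122).

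Single genes departed from the family mean in opposite directions. IGKJ1 was joined to 39.5% of 200 IGKV8-16 clonotypes (26.7 to 52.6% per mouse) but to 10.8% of 722 IGKV8-19 clonotypes (7.87 to 16.7% per mouse), ranges that did not overlap. IGKV8-19 was joined to IGKJ5 in 40.6% of clonotypes, and IGKV8-34 in 39.6%. For IGKV8-19 this was 44.4% of first-form and 33.8% of second-form clonotypes. IGKV8-27 used IGKJ5 in 13.3% (6.12 to 18.5% per mouse) and IGKJ4 in 32.4%. IGKV8-34 used IGKJ2 in 12.6% of 111 clonotypes. These gene values were not tested.

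**Figure D4:**
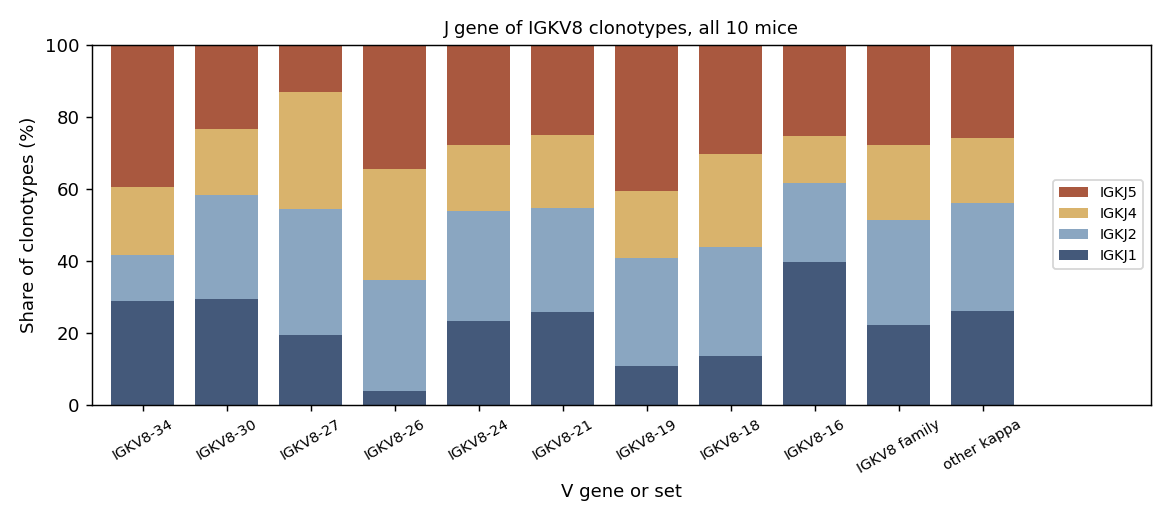
Share of clonotypes joined to each J gene (stacked bars, y axis, %) for each IGKV8 gene, the IGKV8 family and all other kappa (x axis). Gene bars pool the clonotypes of all 10 mice and the 2 bars on the right are means over mice; IGKJ1 makes up 39.5% for IGKV8-16 and 10.8% for IGKV8-19.

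Between treatments J use did not pass the test. The largest difference was for IGKJ5, used by 28.7% ± 3.68 of IGKV8 clonotypes in anti-CTLA-4 mice and 27.1% ± 1.49 in isotype mice (SD, n = 5 each, exact permutation test adjusted p = 0.815).

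CDR3s of IGKV8 clonotypes were shorter than those of other kappa clonotypes. The mean length was 8.76 ± 0.0790 residues, against 8.98 ± 0.00969 (SD, n = 10), and 48.4% ± 5.91 had 9 residues, against 59.8% ± 3.51. Both were lower in 10 of 10 mice (exact sign-flip test, adjusted p = 0.00195, the smallest that 10 mice allow). Proline at residue 7 of a 9-residue CDR3, a common feature of kappa chains that shapes the loop, was present in 84.3% ± 3.81, against 90.2% ± 0.999, again lower in 10 of 10 mice (adjusted p = 0.00195, exact sign-flip test). The proline difference did not pass with deposited counts.

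The usual CDR3 length differed by gene, as did the germline ends printed above. IGKV8-21 and IGKV8-27 had 8 residues most often, in 54.8% and 61.0% of clonotypes, and their most frequent CDR3s were KQSYNLPT and HQYLSSRT. IGKV8-18 and IGKV8-26 had 11 residues most often, in 78.2% and 53.8%, led by QHNHGSFLPLT. The other 5 genes had 9 residues most often, in 51.0% of clonotypes for IGKV8-30 up to 79.3% for IGKV8-34. Proline at residue 7 of 9 was found in 99.1% of 116 IGKV8-16 and 97.2% of 500 IGKV8-19 CDR3s but in 32.4% of 148 IGKV8-21 and 11.9% of 59 IGKV8-27 CDR3s. The most frequent second-form CDR3 of IGKV8-19 was QNDHSYPPT, and the first form's was QNDYSYPLT.

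Between treatments, 9-residue CDR3s made up 51.0, 60.2, 54.5, 42.3 and 49.7% in anti-CTLA-4 mice, against 44.7, 44.3, 49.6, 47.0 and 40.7% in isotype mice. The groups overlapped, since anti-CTLA-4 replicate 4 lay below 4 isotype mice. The difference of 6.27 points did not pass (exact permutation test, adjusted p = 0.262), but without anti-CTLA-4 replicate 4 it was 8.58 points and did (adjusted p = 0.0476, exact permutation test). Mean length (8.75 ± 0.0420 and 8.76 ± 0.110 residues) and the proline share (84.4% ± 4.22 and 84.1% ± 3.85) also did not pass (SD, n = 5 each, exact permutation adjusted p = 0.952 for both).

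V mismatches were counted against the germline over at least 200 aligned bases in the most counted sequence of each clonotype. IGKV8 clonotypes had 0.386 ± 0.0673 mismatches per 100 bases, against 0.469 ± 0.0553 in other kappa clonotypes (SD, n = 10), lower in 9 of 10 mice (exact sign-flip test, adjusted p = 0.00781). The IGKV8 value includes the shared positions of second-form IGKV8-19 clonotypes, all of which had a mismatch (2.40 per 100 bases). With those positions left out, IGKV8 had 0.186 ± 0.0846 per 100 bases, and 75.6% ± 8.27 of its clonotypes had none (SD, n = 10). That setting changes IGKV8 alone, so it gives no comparison with other kappa clonotypes. The call changed with the setting. With positions that differ in over 50% of a call's clonotypes left out, the difference was -0.018 (exact sign-flip p = 0.361). With those that differ in 20% or more left out from all calls, a setting chosen after seeing the data, it was -0.106 and passed: IGKV8 had 0.185 ± 0.0855, against 0.291 ± 0.0600, lower in 10 of 10 mice (exact sign-flip test, adjusted p = 0.00391). With identical mutated sequences kept only in the mouse with more counts it was 0.008 (exact sign-flip p = 0.703), and with whole rearrangements treated so it was -0.150 (exact sign-flip test, adjusted p = 0.0117). With all positions, 68.5% ± 7.64 of IGKV8 clonotypes had no mismatch, against 70.9% ± 5.19 of other kappa clonotypes (exact sign-flip p = 0.135). That direction was not stable: without anti-CTLA-4 replicate 1 the difference was -3.55 points and passed (exact sign-flip p = 0.0117). With positions at 20% or more left out it was higher, at 75.7% ± 8.23, against 72.9% ± 5.35 (exact sign-flip p = 0.0430).

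Genes differed in how many clonotypes were unmutated. With the shared positions of the second form left out, 90.0% of IGKV8-16, 88.5% of IGKV8-26, 85.7% of IGKV8-18 and 81.1% of IGKV8-34 clonotypes had no V mismatch. The share was 79.0% for IGKV8-21, 76.2% for IGKV8-24, 76.0% for IGKV8-27, 71.0% for IGKV8-30 and 66.8% for IGKV8-19. The 4 genes at the top were also those with the fewest clonotypes. Rates by region were counted over every assembled sequence, not 1 per clonotype, again with the second form's shared positions left out. Mismatch rates were 0.526 ± 0.288 per 100 bases in CDR1, 0.403 ± 0.125 in framework 1, 0.427 ± 0.192 in the V part of CDR3, 0.339 ± 0.207 in framework 2, 0.319 ± 0.137 in framework 3 and 0.296 ± 0.179 in CDR2 (SD, n = 10). The spread between mice was wider than most of these differences, which were not tested.

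Some substitutions recurred in several mice. C44T (A15V, framework 1), in 2.74% of 985 IGKV8-21 sequences, and G39T (M13I, framework 1), in 2.65% of 642 IGKV8-24 sequences, were each found in 9 mice. T303C, silent at the V end of IGKV8-34, was in 5.49% of 164 sequences from 7 mice. G97A and A113C, which change CDR1 residues of first-form IGKV8-19 (G33R and Y38S), were in 6.89% and 6.15% of 1349 such sequences, in 5 and 4 mice. G98A, giving S33N in CDR1, was in 4.67% of 642 IGKV8-24 sequences from 4 mice and 2.62% of 1374 IGKV8-30 sequences from 5 mice. Sequences of 1 clone share their changes, so these counts are not independent events. Between treatments, mismatches were 0.383 ± 0.0652 per 100 bases in anti-CTLA-4 mice and 0.389 ± 0.0770 in isotype mice, and 67.6% ± 9.54 and 69.5% ± 6.17 of clonotypes had none (SD, n = 5 each, exact permutation adjusted p = 0.944 for both).

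A stretch of IGKV8-16 was missing from part of its sequences. The first 60 bases of its V region are shown, with the missing bases 10 to 30 in capitals:
IGKV8-16: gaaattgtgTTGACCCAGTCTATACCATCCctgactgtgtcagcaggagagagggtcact
These 21 bases keep the reading frame when removed. They were absent from 75 of 354 productive IGKV8-16 sequences, in every mouse (12.9 to 31.0% of a mouse's IGKV8-16 sequences), and from 0 sequences with other IGKV8 calls. Of 64 clonotypes with the shortened form, 55 were also present at full length in the same mouse.

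The largest IGKV8 clonotype held 7.72, 17.2, 22.0, 8.40 and 24.2% of IGKV8 counts in anti-CTLA-4 mice, against 49.99, 17.6, 35.9, 14.9 and 39.4% in isotype mice. 3 isotype mice lay above every anti-CTLA-4 mouse, and the other 2 within their range. The means were 15.9% ± 7.60 and 31.6% ± 14.9, which did not pass (SD, n = 5 each, exact permutation test adjusted p = 0.159). The 10 largest together held 61.1% ± 12.6 and 69.3% ± 7.59 (exact permutation test adjusted p = 0.286).

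**Figure D5:**
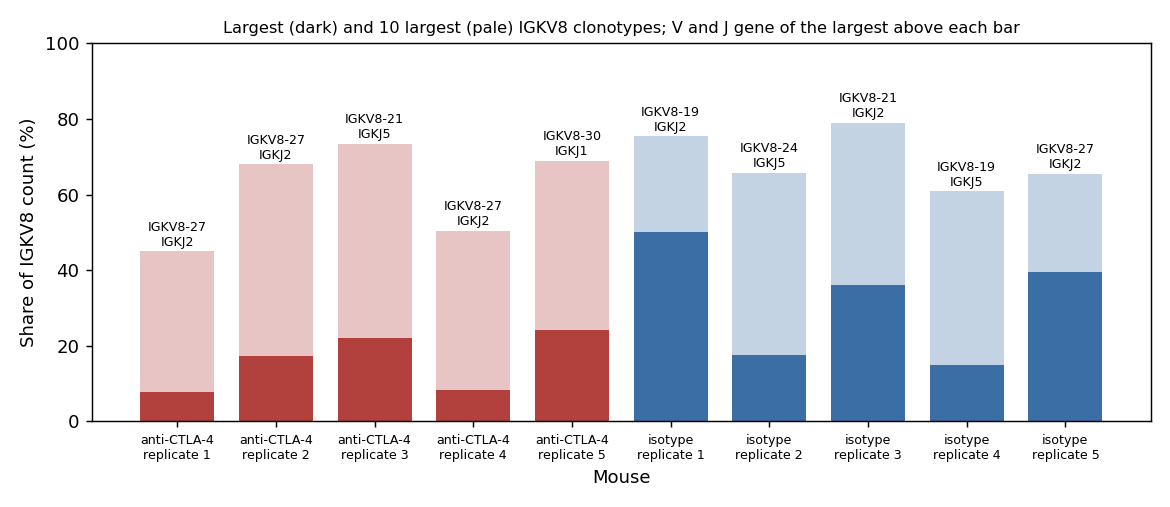
Share of the IGKV8 count (y axis, %) held by the largest IGKV8 clonotype (dark) and the 10 largest (pale) in each mouse (x axis), with the V and J gene of the largest. The dark bars run from 7.72 to 24.2% in anti-CTLA-4 mice and from 14.9 to 49.99% in isotype mice.

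The junctions of these leading clonotypes are shown because the same ones recur across animals. Bases after the aligned V part are in capitals:
IGKV8-27 with IGKJ2, HQYLSSYT: tgtcatcaatacctctcctcgTACACGTTC
IGKV8-21 with IGKJ5, KQSYNLLT: tgcaagcaatcttataatctGCTCACGTTC
IGKV8-30 with IGKJ1, QQYYSYPWT: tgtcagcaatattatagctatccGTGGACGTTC
IGKV8-19 with IGKJ2, QNDYSYPYT: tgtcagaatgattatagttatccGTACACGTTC
IGKV8-24 with IGKJ5, QQHYSTPLT: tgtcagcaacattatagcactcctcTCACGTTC
IGKV8-21 with IGKJ2, KQSYNLYT: tgcaagcaatcttataatcttTACACGTTC
IGKV8-19 with IGKJ5, QNDYSYPLT: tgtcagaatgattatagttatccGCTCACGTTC
The IGKV8-27 junction led in anti-CTLA-4 replicates 1, 2 and 4, with counts of 393, 2975 and 1797, and in isotype replicate 5, with 6714. The 2 IGKV8-21 junctions led in anti-CTLA-4 replicate 3 (KQSYNLLT, count 3865) and isotype replicate 3 (KQSYNLYT, count 20508). IGKV8-30 led in anti-CTLA-4 replicate 5 (count 5376). IGKV8-19 led in isotype replicates 1 (QNDYSYPYT, 13993) and 4 (QNDYSYPLT, 2947), and IGKV8-24 in isotype replicate 2 (5633).

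Each of these junctions was present in all 9 other mice, so a clonotype defined by its junction can join unrelated cells. QNDYSYPYT with IGKV8-19, at 13993 in isotype replicate 1, had counts of 120 to 816 in the others. The leading sequences were mostly germline: the most counted sequence had 0 V mismatches in 7 of the 10 mice. The exceptions were anti-CTLA-4 replicate 3 with 3, isotype replicate 3 with 1 and isotype replicate 4 with 2. In isotype replicate 3, 100% of the count of the leading clonotype carried a mismatch, against 8.22% in isotype replicate 1. Among the 7 mice with a germline top sequence, this share was 43.2% in anti-CTLA-4 replicate 2 and 35.8% in isotype replicate 5. It was 0.509 to 8.22% in the rest of the 7.

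Most IGKV8 counts, though not most distinct clonotypes, belonged to rearrangements shared by all mice. With clonotypes defined by V call, J gene and CDR3 amino acids, 85 of 832 distinct IGKV8 clonotypes were found in all 10 mice and 485 in a single mouse. The 85 held 94.6% of IGKV8 counts and the 485 held 1.27%. The same values are not given here for other kappa clonotypes, so whether they are particular to IGKV8 was not tested. Of the IGKV8 clonotypes in all mice, the most counted were KQSYNLYT (IGKV8-21, IGKJ2), QNDYSYPLT (IGKV8-19, IGKJ5), HQYLSSYT (IGKV8-27, IGKJ2), QNDYSYPYT (IGKV8-19, IGKJ2) and QQYYSYPWT (IGKV8-30, IGKJ1). Their summed counts were 28187, 26386, 18078, 17979 and 14408. QNDYSYPLT was encoded by 23 different junctions and had the highest median count per mouse, 2254, while KQSYNLYT had a median of 585.5 and owed 21271 of its count to isotype replicate 3. Of 96 junctions found in all mice, 89.6% held no base between the aligned V and J parts, against 62.1% of 747 junctions found in 1 mouse.

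At equal numbers of clonotypes (167 per mouse, mean of 100 draws), 76.4% ± 7.49 of IGKV8 clonotypes in anti-CTLA-4 mice and 77.5% ± 5.32 in isotype mice occurred in at least 1 other mouse (SD, n = 5 each, exact permutation p = 0.770). Other kappa clonotypes drawn to the same number were shared at 27.6% ± 1.75, but they were spread over many more V genes. Without the draw, IGKV8 sharing exceeded that of other kappa clonotypes by 1.06 points, and this did not pass (exact sign-flip p = 0.385).

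Mutated sequences were rarely shared. Of 2275 distinct IGKV8 sequences with at least 2 V mismatches, not counting the second form's shared positions, 24 occurred in more than 1 mouse. Of 45 pairs of mice, 34 shared 0. Isotype replicates 3 and 4 shared 13, which carried 19.1% and 16.2% of their IGKV8 counts. An example is an IGKV8-30 clonotype with IGKJ1 and CDR3 QQYYNYTWT, with counts of 1906 and 216 in isotype replicates 3 and 4 and found in no other mouse. Its junction is shown with the V substitution G296A in capitals:
IGKV8-30 with IGKJ1: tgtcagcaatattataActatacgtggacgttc
Whether these sequences arose in both animals or passed between libraries was not tested. With such sequences kept only in the mouse that had more counts, no treatment comparison above changed its side of the threshold.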

How the data were processed

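Each mouse's deposited table lists assembled sequences with their gene calls, germline alignments and a whole-number count, as the authors made it, per the file headers. Total RNA went into a commercial kit for mouse B cell receptors whose primers carry molecular identifiers, per the labels' protocols. Aligner, germline set, genome build and whether a count stands for reads or molecules: not given in the sources used here. Total counts were 382184 to 790139 per mouse, and the smaller IGKV8 totals limit precision for rare genes.

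Productive rows were kept. Joint V calls, 2.33% of productive kappa sequences, stayed joint. Clonotype numbers per V call and family were tested with edgeR 4.0.16 (TMM, filterByExpr, R 4.3.3), Benjamini-Hochberg adjusted over all features, with DESeq2 1.42.0 as an alternative. The edgeR step was tested on simulated data. Single values per mouse used exact permutation tests (smallest p 0.00794 for 5 against 5) and sign-flip tests (0.00195 for 10 mice). Python 3.11.15 did the rest. Each animal gave 1 library.

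Other settings were DESeq2, no TMM factors, no filter, deposited counts, a minimum count of 2, other clonotype definitions, rearrangements kept only in the mouse with more counts, each mouse left out, and a replicate block. Named items were all IGKV8 genes and joint calls, each mouse's largest clonotype, the 5 most shared clonotypes and the 3 most similar V calls. Recurrent substitutions, the second IGKV8-19 form and the IGKV8-16 deletion were chosen after their values were seen. The members and lists were chosen with earlier results of these data known. All 112 kappa gene names matched the RefSeq table. No sign that replicate numbers pair the mice was seen. Over 91 V calls, deviations of same-numbered mice correlated at -0.104 to 0.027, against -0.196 to 0.174 for mice of different numbers. V use alone cannot exclude a pairing.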

Additional observations from a re-analysis of the deposited data

Results flagged for a closer look

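In 64 groups of 5 mice examined with Dixon's test, 7 held a mouse far from the others, and chance flags about 1 in 20 groups. IGKV8-27 took 4.27% of kappa counts in isotype replicate 5, against 0.832 to 0.975% in the other isotype mice. IGKV8-21 took 6.06% in isotype replicate 3, against 0.671 to 1.49%. IGKV8-24 took 2.31% in isotype replicate 2, against 0.365 to 0.629%. IGKV8-18 took 0.619% in anti-CTLA-4 replicate 5, against 0.00824 to 0.0427%, and 0.0389% in isotype replicate 2, against 0.0222 to 0.0270%. IGKV8-26 took 0.0114% in anti-CTLA-4 replicate 4, against 0 to 0.00214%. By clonotypes, IGKV8-16 held 0.636% in isotype replicate 2, against 0.525 to 0.552%.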

How the results depend on the processing

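Differences are anti-CTLA-4 minus isotype (log2 fold changes for genes) unless said otherwise. No setting called an IGKV8 gene or family by clonotypes; without a filter 1 other V call passed. The replicate block left the family's log2 fold change at -0.06 and the count-share difference at -4.30 points, with an exact sign-flip p of 0.125 for 5 pairs, which cannot go below 0.0625, against an unadjusted exact p of 0.0238 without the block; it changed no other result's side of its threshold. The share did not pass over 19 families to begin with (exact permutation adjusted p = 0.377). Its unadjusted p was above 0.05 without the 10 largest kappa clonotypes (-0.77) or the largest IGKV8 clonotype (-2.26). The latter removal takes counts from IGKV8 alone, so it could only lower the share and decides nothing. With rearrangements kept only in the mouse with more counts, the count-share difference was -7.05 (unadjusted exact permutation p = 0.0238). This decides nothing, since the setting picks rearrangements by the same counts.

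With deposited counts the sign turned for IGKV8-16 (-0.37), IGKV8-19 (-1.33) and IGKV8-34 (0.027), IGKJ1 (11.2 points), IGKJ4 (2.01), mean CDR3 length (0.050) and unmutated clonotypes (13.9). With each assembled sequence counted it turned for IGKV8-16 (-0.062), IGKV8-19 (-0.19), IGKV8-34 (0.018), IGKJ1 (2.12), CDR3 length (0.054) and unmutated share (4.38). A count of at least 2 turned IGKV8-16 (-0.082), IGKV8-30 (-0.0026), IGKJ2 (0.042), CDR3 length (0.0087) and sharing (0.831). IGKV8-24, near 0, turned with DESeq2 (-0.010), no TMM factors (-0.039), no filter (-0.030), amino acid clonotypes (-0.0075) and shared mutated sequences removed (-0.033). The last setting, positions at 20% or more, and the second form's positions turned the mismatch rate (0.0031, 0.0031 and 0.0070). Amino acid clonotypes turned the family (0.0035), and nucleotide junctions turned sharing (0.067). None of these passed, and the cause was not tested.

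Against other kappa, deposited counts moved IGKJ1 to -2.25, IGKJ2 to 4.84, IGKJ4 to -2.23, IGKJ5 to -0.37, proline to -0.84, mismatches to 0.055 and unmutated share to 0.713, all not past the threshold. Each assembled sequence gave IGKJ1 -3.91, IGKJ2 0.202, IGKJ4 1.27 and mismatches -0.040, none past it. Mismatches also lost the call with a count of at least 2 (-0.057), medians (0), positions over 50% left out (-0.018), or shared mutated sequences removed (0.0080). The same with whole rearrangements gave -0.150, past it. The unmutated share was 2.81 points higher without positions at 20% or more, past it, and lower and past it without anti-CTLA-4 replicate 1 (-3.55). The value without the second form's positions, 4.70, removes mismatches from IGKV8 alone, so it could only rise and tests nothing. The mismatch values of -0.018 and 0.0080 decide nothing either. Both settings kept these positions in IGKV8, while common mismatches of other V calls could be taken out. Sharing with no draw was 1.06.

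Leaving out each mouse gave ranges of -0.024 to 0.15 for IGKV8-18, -0.20 to 0.15 for IGKV8-19, -0.22 to 0.065 for IGKV8-24, -5.08 to -3.20 for the count share, -0.78 to 0.591 for IGKJ1, -2.04 to 0.222 for IGKJ4, -0.054 to 0.019 for CDR3 length, 4.11 to 8.58 for 9 residues, -1.01 to 1.78 for proline, -0.031 to 0.016 for mismatches, -5.25 to 0.769 for unmutated share and -4.11 to 0.567 for sharing. Against other kappa it gave 2.18 to 3.04 for IGKJ4 and -3.55 to -1.68 for unmutated share. The 26 IGKV8-26 clonotypes were too few to test.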

Other observations

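Non-productive kappa rearrangements, which the comparisons above leave out, set IGKV8-16 apart. Counting clonotypes in any frame, 202 of 798 IGKV8-16 clonotypes were in frame, 25.3%, and the share per mouse ran from 19.7 to 33.9%. In the other IGKV8 genes it was 51.4% for IGKV8-27 up to 69.8% for IGKV8-30, and in other kappa clonotypes 66.9%. The lowest mouse of any of these was IGKV8-26 at 40.0%, where 44 clonotypes were spread over the mice. The 21-base gap of IGKV8-16 was also in 413 of 994 non-productive sequences of that gene, 41.5%, against 75 of 354 productive ones, 21.2%. In the germline sequences of the files, the CDR1 of IGKV8-16 ended in a cysteine codon, and that of each of the 8 other IGKV8 genes in a tyrosine codon. None of these values was tested.

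Clonotypes with a count of 1 made up 22.0 to 35.4% of IGKV8 clonotypes per mouse, against 24.4 to 36.3% of other kappa clonotypes.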
